A study of Mus musculus with 2 samples.

Results

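The cardiac myosin heavy chain genes Myh6, Myh7 and Myh7b were taken by name from allele-specific read counts of adult and aged mouse heart nuclei. All 3 were listed in both libraries, where 24015 genes were listed for the adult heart and 22691 for the aged one. The adult library came from 1 heart of a female at 9 weeks and the aged library from 1 heart of a female at 78 weeks, both F1 hybrids of a C57BL/6J (BL6) mother and a CAST/EiJ (CAST) father. The labels give C57BL/6JxCAST/EiJ as the genotype of both, whereas their breed field names the cross with the Xist mutant line, C57BL/6J∆Xist-/+, and the study's methods describe both hearts as wild-type. The aged file is named for a different number of weeks, and its label was followed. Nuclei were sorted by a DNA dye, sequenced with the 10x Genomics 3′ chemistry and pooled over all cell types when the BL6 copy was their active X chromosome. Reads over positions at which the strains differ (SNPs) were split by strain, and the allelic ratio is the BL6 share of such reads. With 1 library per age no test between the ages was possible, and all intervals are 95% intervals that cover counting error only, so the variation between animals is not in them.

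Myosin heavy chains are the motor proteins of the thick filament, in which they bind actin and split ATP. Myh6 encodes the fast alpha chain, the main ventricular form of the adult mouse, and Myh7 the slower beta chain, the main form of the fetal mouse ventricle and of slow skeletal muscle. The genes lie next to each other, and their relative amounts are known to respond to thyroid hormone, load and disease. Myh7b encodes a related slow-type chain on another chromosome. Each of the genes also carries a microRNA in an intron.

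On GRCm38, Myh6 spans 26097 bp of chromosome 14 from 54941921 to 54968017 on the minus strand, and Myh7 spans 23866 bp from 54970684 to 54994549 on the same strand, 2666 bp upstream of Myh6. Myh7b spans 23065 bp of chromosome 2 from 155611243 to 155634307 on the plus strand. All are protein-coding (ENSMUSG00000040752.16, ENSMUSG00000053093.16 and ENSMUSG00000074652.3). The hairpins of Mir208a, Mir208b and Mir499 lie inside Myh6, Myh7 and Myh7b, respectively, on the strand of the host gene and outside the exons of its GENCODE basic transcripts. Their mature sequences (RefSeq, GRCm38.p6) are shown because the host genes are those described here, with bases 2 to 8, the seed, in capitals. The deposited values hold reads of the host loci and no values of the microRNAs.
mmu-miR-208a-3p, in Myh6, chr14:54949072-54949093, minus strand: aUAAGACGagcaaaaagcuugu
mmu-miR-208b-3p, in Myh7, chr14:54975710-54975731, minus strand: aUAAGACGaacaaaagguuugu
mmu-miR-499-5p, in Myh7b, chr2:155622893-155622913, plus strand: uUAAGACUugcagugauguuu
The microRNAs of Myh6 and Myh7 share all 7 seed bases and differ from each other at 3 of 22 positions, written G10A, A16G and C18U with miR-208a-3p first and positions counted from the 5′ end. The microRNA of Myh7b shares 6 of the 7 seed bases with either of them, the difference in the seed being G8U against miR-208a-3p.

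The promoter windows of the neighbouring genes Myh6 and Myh7 are shown because these genes leaned to opposite alleles. They are 300 bases long, from 250 bases before to 50 after a RefSeq start site, as the BL6 reference has them. Capitals mark matches, on either strand, to the letters CATTCC, the MCAT element that TEAD factors bind. They also mark the letters TATAAA, those of a core promoter element, where present. The letters GATAAG, which GATA factors bind, were searched in the same way, as was the CArG box of Srf.
Myh6, chr14:54966558-54966857, minus strand: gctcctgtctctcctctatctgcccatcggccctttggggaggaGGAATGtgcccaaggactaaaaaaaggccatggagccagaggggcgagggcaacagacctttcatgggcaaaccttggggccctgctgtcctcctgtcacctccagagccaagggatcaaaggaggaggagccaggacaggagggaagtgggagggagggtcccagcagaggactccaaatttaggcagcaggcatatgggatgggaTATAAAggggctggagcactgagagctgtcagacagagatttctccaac
Myh7, chr14:54994577-54994876, minus strand: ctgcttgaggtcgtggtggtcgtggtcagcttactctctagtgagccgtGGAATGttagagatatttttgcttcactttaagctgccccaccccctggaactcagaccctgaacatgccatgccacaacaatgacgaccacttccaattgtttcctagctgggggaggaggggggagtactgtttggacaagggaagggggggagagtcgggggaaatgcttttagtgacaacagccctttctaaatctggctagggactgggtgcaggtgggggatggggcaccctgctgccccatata
A match to CATTCC started at position -206 of Myh6 and at position -201 of Myh7, and 14.7% of 32851 windows of this length hold one. A match to TATAAA was present in the Myh6 window, at position 2, and 13.6% of the windows hold one. It thus lies after the start site of that window and not upstream of it. GATAAG and the CArG box, found in 7.44% and 1.63% of the windows, had no match in either. The Myh6 window lies inside the locus given above and not at its upstream end, and the Myh7 window shown lies wholly upstream of the Myh7 locus. A further RefSeq window of Myh7, chr14:54994500-54994799, takes in the upstream end of the locus. It held none of the 4 motifs, as did the window of Myh7b. The positions hold only for the start site of each window. A match describes letters and is not a measured binding site, and no SNP positions were used.

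Over all genes, the counts summed to 9747535 SNP-overlapping reads at 9 weeks and to 5805807 at 78 weeks. BL6 made up 53.4% and 53.8% of the autosomal reads, respectively, so allelic ratios are set beside 0.534 and 0.537. The tissue label was checked against 13 cardiomyocyte markers, all of which had at least 20 reads in both libraries. Their summed level was 23906 RPM (reads scaled to 1000000 reads of all genes) in the adult and 25665 RPM in the aged library, with Ryr2, the calcium release channel, at 12068 and 13855 RPM. The RPM scale itself was uneven between the libraries, since the median log2 ratio of RPM, aged over adult, was 0.22 over 12390 autosomal genes with at least 20 reads in both libraries. Changes are therefore also given relative to this median.

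Myh6 was the member with most reads and the only member read mainly from CAST. In the adult library 7861 reads came from BL6 and 12950 from CAST, against 6067 and 8161 at 78 weeks. The allelic ratio was 0.378 (0.371 to 0.384) at 9 weeks and 0.426 (0.418 to 0.435) at 78 weeks, below the autosomal share each time. Per BL6 read there were 1.65 CAST reads at 9 weeks and 1.34 at 78 weeks, so the excess of CAST was smaller in the aged library. An interval below the autosomal share in both libraries was found for 12.8% of autosomal genes with at least 20 reads and for 26.3% of the 1175 with at least 1000 reads, which are closer to Myh6 in depth. Among the latter, 1.79% had a lower allelic ratio than Myh6 at 9 weeks and 5.53% at 78 weeks.

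Myh7, the beta chain, leaned to BL6. Of its reads, 4621 were from BL6 and 3392 from CAST at 9 weeks, and 3942 and 3389 at 78 weeks. The allelic ratio was 0.577 (0.566 to 0.588) at 9 weeks and 0.538 (0.526 to 0.549) at 78 weeks. The adult interval lay above the autosomal share, and the aged interval included it. Myh7b also leaned to BL6, with 997 reads from BL6 and 614 from CAST at 9 weeks and 420 and 276 at 78 weeks. Its allelic ratio was 0.619 (0.595 to 0.643) and 0.603 (0.566 to 0.640), above the autosomal share in both libraries, which held for 13.7% of autosomal genes with at least 20 reads and for 23% of those with at least 1000.

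Adult minus aged, the allelic ratio changed with opposite signs in the neighbouring genes. It was -0.0487 for Myh6 (-0.0591 to -0.0382) and 0.0390 for Myh7 (0.0232 to 0.0547). Myh6 lay closer to the autosomal share in the aged library, as did Myh7 with all its reads. Myh7 did not once the reads of the overlapping antisense RNA Mhrt were taken off, which may also take off reads of Myh7 itself. For Myh7b the change was 0.0154 with an interval from -0.0276 to 0.0591, within counting error. The intervals of the libraries did not overlap for Myh6 and Myh7 and overlapped for Myh7b. Intervals that did not overlap were found for 11.8% of autosomal genes with at least 20 reads and for 31.7% of those with at least 1000 reads, so separate intervals are common at the depth of Myh6 and Myh7. A lower ratio in the aged library, as for Myh7, was found with separate intervals for 5.44% and 14.1% of these genes, and a higher one, as for Myh6, for 6.37% and 17.5%. An absolute change smaller than that of Myh6 was found for 77.8% of the deeply covered genes, and one smaller than that of Myh7 for 66.1%.

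The levels of the members differed by library in different ways. Myh6 was at 2135 RPM (2106 to 2164) at 9 weeks and 2451 RPM (2411 to 2491) at 78 weeks, a ratio of 1.15 (1.12 to 1.17). Myh7 was at 822 RPM (804 to 840) and 1263 RPM (1234 to 1292), a ratio of 1.54 (1.49 to 1.59). Myh7b had 165 RPM (157 to 174) and 120 RPM (111 to 129), a ratio of 0.725 (0.663 to 0.793). Myh7 was thus higher, Myh7b lower and Myh6 slightly higher on this scale in the aged library. The interval of the ratio excluded 1 for all 3, as it did for 63.2% of autosomal genes with at least 20 reads and for 86.1% of those with at least 1000. Relative to the median of all autosomal genes, the log2 ratio was -0.03 for Myh6, 0.40 for Myh7 and -0.69 for Myh7b, so the higher level of Myh6 was no larger than that of the median gene and its sign depended on the scale. Of the members, 1 of 3, Myh7, was at least 1.5 times higher in the aged library, which held for 28.3% of autosomal genes with at least 20 reads and for 19% of those with at least 1000 reads. None was at least 1.5 times lower on the RPM scale, which held for 11.7% and 11.6% of these genes. Both statements depended on the scale: by the median of ratios Myh7 was 1.32 times higher and Myh7b 1.61 times lower, and scaled to cardiomyocyte markers Myh7 was 1.43 times higher and Myh7b 1.48 times lower.

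**Figure D1:**
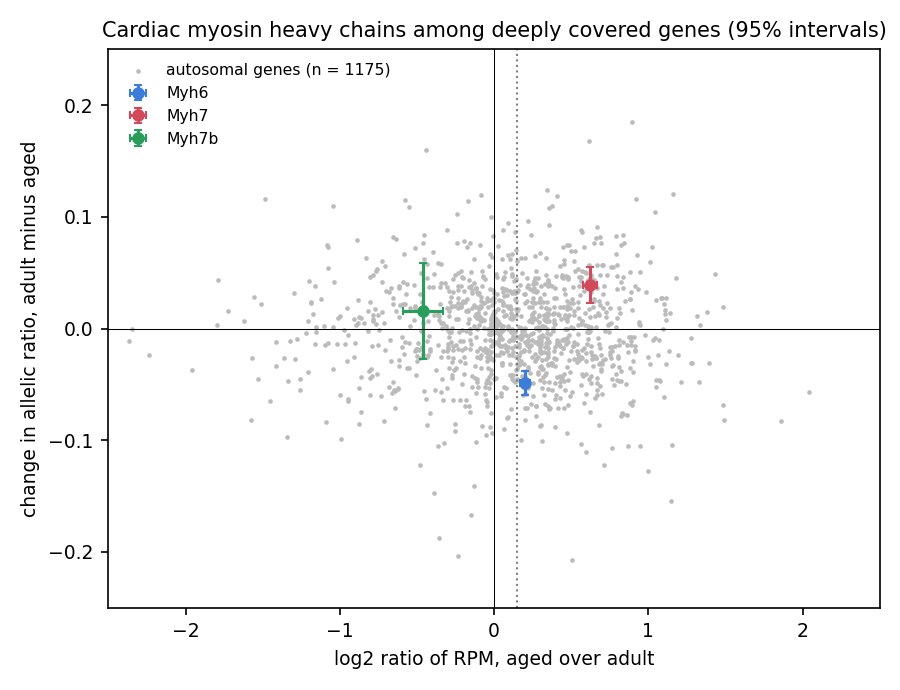
Difference of the allelic ratios, adult minus aged, against the log2 ratio of RPM, aged over adult, for 1175 autosomal genes with at least 1000 reads in both libraries (grey, 1 gene outside the axes) and for Myh6, Myh7 and Myh7b (coloured, bars are 95% intervals of counting error; the dotted line is the median of the grey genes). Myh6 and Myh7 lie on opposite sides of 0 in allelic ratio, and Myh7b lies to the left of both. All lie inside the cloud of other genes, although Myh7b, with 696 aged reads, is below the minimum of the grey genes.

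Split by allele, both alleles of Myh7 were higher in the aged library. BL6 reads of Myh7 went from 474 to 679 RPM, a ratio of 1.43 (1.37 to 1.495), and CAST reads from 348 to 584 RPM, a ratio of 1.68 (1.60 to 1.76). Of the difference of 441 RPM, 205 came from BL6 and 236 from CAST. For Myh6 the difference lay mostly on BL6, whose reads went from 806 to 1045 RPM, a ratio of 1.30 (1.253 to 1.34). CAST reads of Myh6 were at 1329 and 1406 RPM, a ratio of 1.06 (1.03 to 1.09), smaller than that of the median gene. Both alleles of Myh7b were lower, BL6 at 102 and 72.3 RPM and CAST at 63.0 and 47.5 RPM, with ratios of 0.707 (0.630 to 0.794) and 0.755 (0.652 to 0.871) whose intervals overlapped. In Myh6 and Myh7 the allele with fewer reads in the adult library had the higher ratio of aged to adult reads, beyond counting error. That restates their changes in allelic ratio and is not a further result.

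**Figure D2:**
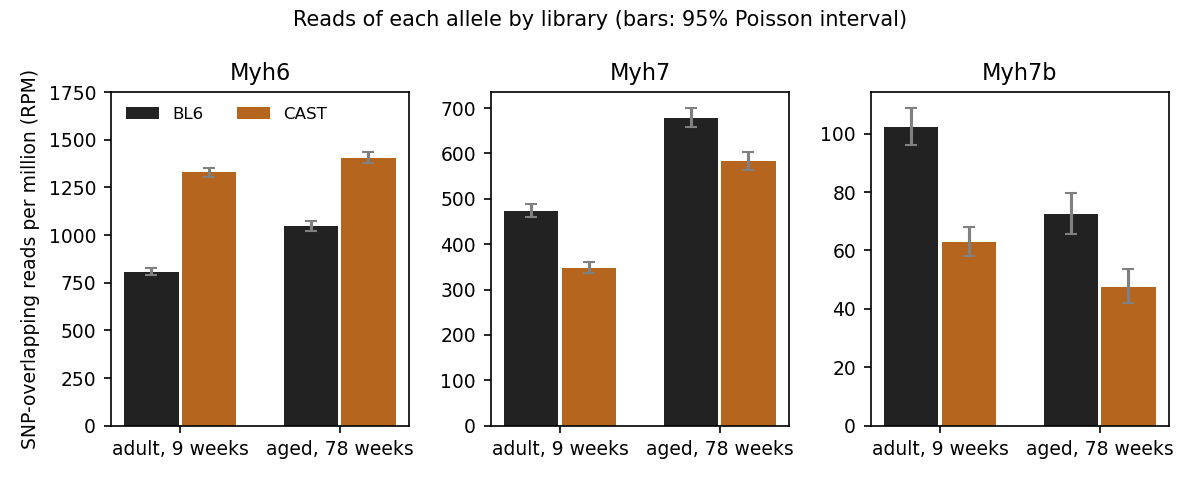
RPM of the BL6 (black) and the CAST allele (brown) of Myh6, Myh7 and Myh7b in the adult (9 weeks) and the aged library (78 weeks), with 95% Poisson intervals and a separate axis for each gene. CAST is the higher allele of Myh6 and BL6 of Myh7 and Myh7b in both libraries.

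The beta chain is often expressed as a share of both chains, a measure that does not depend on the library total. Myh7 made up 27.8% (27.3% to 28.3%) of the reads of Myh6 and Myh7 in the adult library and 34% (33.4% to 34.6%) in the aged library. The odds of Myh7 to Myh6 were 1.34 times higher in the aged library (1.29 to 1.39). On the BL6 allele the share was 37.0% (36.2% to 37.9%) and 39.4% (38.4% to 40.3%), an odds ratio of 1.11 (1.05 to 1.17). On the CAST allele it was 20.8% (20.1% to 21.4%) and 29.3% (28.5% to 30.2%), an odds ratio of 1.58 (1.5 to 1.67). The share was thus lower on CAST in both libraries, and the difference between the libraries was larger there. These shares rest on the same reads as the allelic ratios and are not further evidence for them.

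**Figure D3:**
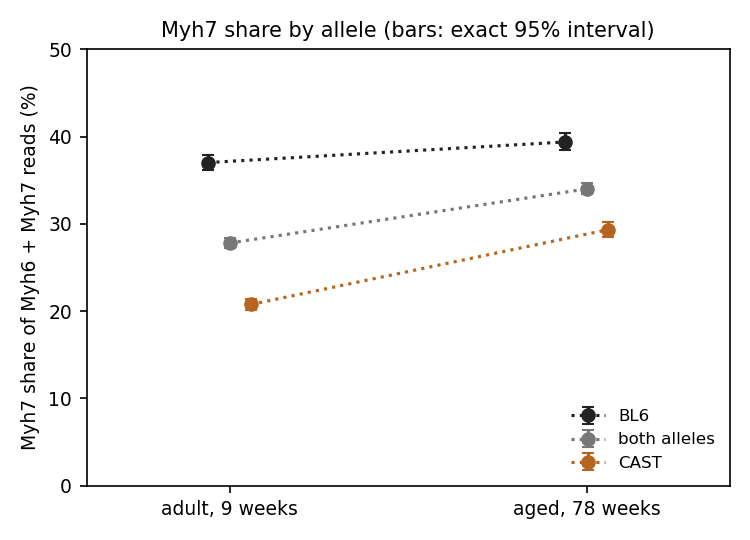
Share of Myh7 in the summed reads of Myh6 and Myh7, in percent, for BL6 reads, CAST reads and both, in the adult and the aged library, with exact 95% intervals; dotted lines join the libraries. The CAST share goes from 20.8% to 29.3% and the BL6 share from 37.0% to 39.4%. Reads of Myh7 are those of its locus and cannot be told apart from antisense reads there.

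Per kb of locus, Myh6 had 81.8 RPM per kb at 9 weeks and 93.9 at 78 weeks, Myh7 34.4 and 52.9, and Myh7b 7.17 and 5.20. The order Myh6, Myh7, Myh7b was the same in both libraries, and no neighbours in it had overlapping intervals of RPM. In RPM per kb, Myh6 was 2.37 times Myh7 in the adult and 1.77 times in the aged library. Among the 12390 autosomal genes, Myh6 ranked 5th and 9th on this scale, Myh7 29th and 23rd, and Myh7b 315th and 756th. The number of SNPs per kb was not used, so a level also depends on how many positions of a gene can be read by allele. Whether reads of the 3′ chemistry scale with the length of a locus was not tested. The ranks therefore describe reads per kb and are not levels of transcripts.

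The locus of Myh7 cannot be read as Myh7 alone. Mhrt, an antisense long noncoding RNA named for the myosin heavy chain locus, spans chromosome 14 from 54968787 to 54974349 on the plus strand, and 3666 bp of it, 65.9% of its length, lie in the 3′ part of Myh7, with 1273 bp in exons of Myh7. The antisense locus Gm31251 (54975264 to 55005006) shares 19286 bp with the rest of Myh7, so that 96.2% of the Myh7 locus is also annotated on the other strand. Mhrt and Gm31251 together had 9239 reads at 9 weeks and 8151 at 78 weeks, and Myh7 had 8013 and 7331. The same reads may be counted under both strands, so these numbers do not compare amounts of sense and antisense RNA. No source used here says that strand entered the counting, and reads of Myh7 and of its antisense partners cannot be told apart.

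Allelic ratios differed along this locus. The ratio of Mhrt was 0.643 (0.626 to 0.660) at 9 weeks and 0.619 (0.598 to 0.639) at 78 weeks, at levels of 308 and 378 RPM. That of Gm31251 was 0.521 (0.508 to 0.533) and 0.496 (0.484 to 0.509), at 640 and 1026 RPM. The 3′ part around Mhrt was thus more BL6-biased than the rest. When all reads of Mhrt were taken off Myh7, the remaining 5008 adult and 5135 aged reads had allelic ratios of 0.537 (0.523 to 0.551) and 0.503 (0.489 to 0.517). The adult interval included the autosomal share and the aged interval lay wholly below it. By reads the aged remainder was nearly even, with 2583 from BL6 and 2552 from CAST, so it was low only against the autosomal share. The level of the remaining reads was still higher in the aged library, at 514 and 885 RPM, a ratio of 1.72 (1.65 to 1.79). Their change in allelic ratio was 0.034 (0.014 to 0.053). Taking off Mhrt was chosen after its values were seen, and it takes off too much where Mhrt reads lie outside Myh7. It may also take off reads of Myh7 itself, since strand use is not stated and the shared stretch holds exons of Myh7. The intervals treat the remainder as counted reads, although it is a difference between locus counts. The remainder is therefore not a cleaner measure of Myh7. Reads of Gm31251, 6234 at 9 weeks and 5955 at 78 weeks, were not taken off, so the remainder is not Myh7 alone.

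Myh6 and Myh7b shared little with other loci. Cmtm5, which overlaps the 3′ end of Myh6 by 1125 bp, had 245 and 272 reads, 1.18% and 1.91% of those of Myh6. Trpc4ap overlaps Myh7b by 31 bp. Of 15 other loci within 100 kb of Myh6 or Myh7, 9 had at least 20 reads in both libraries, and the interval lay above the autosomal share in both libraries for 1 of them, Mhrt, and below it in both for 1, Gm31251. Reads of both cannot be told apart from those of Myh7, so these counts are not separate from Myh7. Gm31251, with 0.521 and 0.496, was much closer to the share than Myh6. An interval below 0.5 was found at 9 weeks for 1 of the 9, Homez, with 38 reads and a ratio of 0.316 (0.175 to 0.486), and for none at 78 weeks. Cmtm5 alone of the 9 had separate intervals, at 0.522 (0.458 to 0.586) and 0.658 (0.598 to 0.714), against 11.8% of autosomal genes with at least 20 reads. Around Myh7b, 6 of 7 loci had at least 20 reads in both libraries. None had an interval above the autosomal share in both, while 1 lay below it in both, against the same 13.7% and 12.8%. In both regions no such locus was at least 1.5 times lower in the aged library, against 11.7% of autosomal genes with at least 20 reads. At least 1.5 times higher were 5 of 9 and 1 of 6, against 28.3%. Gm31251, with a ratio of 1.60, was among the 5. Myh7b itself was not past this fold on the RPM scale. Around it the log2 ratio of RPM ranged from 0.04 to 2.15, so none of these loci was lower in RPM.

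**Figure D4:**
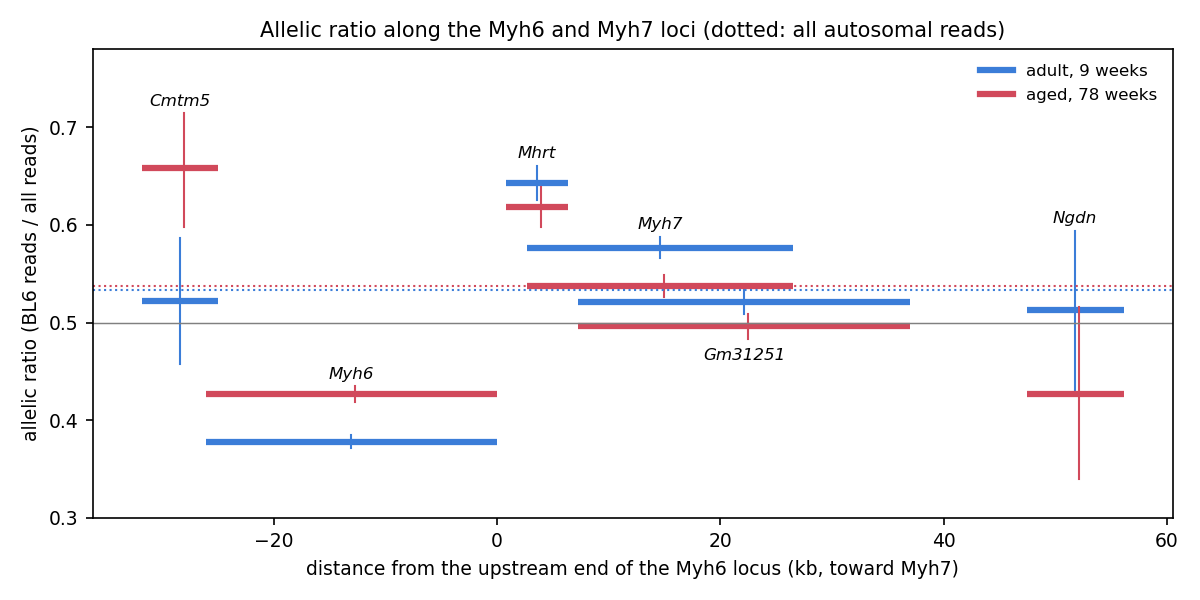
Allelic ratio of loci with at least 100 reads in both libraries along 100 kb either side of Myh7, against the distance from the upstream end of the Myh6 locus in kb; horizontal lines span each locus, vertical lines are exact 95% intervals, and dotted lines mark the BL6 share of all autosomal reads. Myh6 lies below 0.5 in both libraries, and Myh7 lies between Mhrt and Gm31251.

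Of the other myosin heavy chains, 7 were listed in the adult library, and 4 reached the minimum of 20 reads in both. A ratio of at least 1.5 was found for 2 of the 4 and one of at most the inverse for 1, against 28.3% and 11.7% of all autosomal genes. Myh11, the smooth muscle chain, was at 66.4 RPM in the adult and 220 RPM in the aged library, a ratio of 3.32 (3.02 to 3.65), and Myh9, a nonmuscle chain, was at 46.7 and 73.9 RPM. Myh14, another nonmuscle chain, was at 48.3 and 28.1 RPM, a ratio of 0.581 (0.483 to 0.696), and Myh10 stayed within 1.5 times. The embryonic and perinatal skeletal chains Myh3 and Myh8 had at most 5 reads in either library, and Myh15 at most 2. Myh1, Myh2, Myh4 and Myh13 were not analysed here.

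Among the myosin light chains and their kinases, 11 of 15 had at least 20 reads in both libraries, 4 were at least 1.5 times higher in the aged library and 1 was lower, against 28.3% and 11.7% of all autosomal genes. Their median log2 ratio was 0.30, against 0.22 over all autosomal genes. Myl2, the ventricular regulatory light chain, was at 104 and 187 RPM, a ratio of 1.80 (1.65 to 1.97), and Myl3, the ventricular essential light chain, at 226 and 259 RPM, a ratio of 1.15 (1.07 to 1.22). Myl3 thus had nearly the ratio of Myh6. Mylk3, the cardiac kinase of the regulatory light chain, was at 641 and 284 RPM, a ratio of 0.442 (0.419 to 0.467). The other 3 that were higher, Myl6, Myl9 and Mylk, are the smooth muscle and nonmuscle forms.

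Of 17 thick filament and M-band proteins and myosin chaperones, 13 had at least 20 reads in both libraries, with 3 higher and 3 lower by the same fold, against the same 28.3% and 11.7%, and a median log2 ratio of -0.09. Myom2, an M-band protein that ties thick filaments together, was at 935 RPM in the adult and 83.5 RPM in the aged library, a ratio of 0.0893 (0.0814 to 0.0979). Its relative Myom1 was at 711 and 765 RPM. Ttn, the giant spring of the sarcomere, was at 11849 and 6872 RPM, and Trim63, a ubiquitin ligase of muscle, at 178 and 115 RPM. Smyd1, a methyltransferase that acts in myosin folding, was higher, at 356 and 591 RPM, together with the chaperones Unc45a and Hsp90aa1, which had at most 58 reads. Mybpc3, cardiac myosin-binding protein C, had 177 and 228 RPM and separate allelic ratio intervals, 0.463 and 0.534.

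All 7 thin filament genes had at least 20 reads in both libraries, with a median log2 ratio of 0.41. Actc1, cardiac alpha-actin, was at 337 and 1385 RPM, a ratio of 4.11 (3.95 to 4.28), and was the only one of the 7 at least 1.5 times higher, against 28.3% of all autosomal genes. Tnnt2, cardiac troponin T, was at 1245 and 1215 RPM. Thus the genes of the contractile apparatus did not share one ratio between the libraries, and Myh6, Myh7 and Myh7b lay inside their range. Of genes that often accompany Myh7 under cardiac stress, Nppa had 81.7 and 66.8 RPM, Ankrd1 81.2 and 83.7 RPM and Xirp2 324 and 394 RPM, none past 1.5 times. Nppb had 3 and 22 reads, a ratio of 12.3 (3.70 to 64.2), and Acta1 2 and 5 reads.

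Of 19 factors known to act on Myh6 or Myh7, 16 had at least 20 reads in both libraries, 3 were at least 1.5 times higher and 4 lower in the aged library, against 28.3% and 11.7% of all autosomal genes, with a median log2 ratio of 0.08. Thrb, a thyroid hormone receptor, was at 1171 and 677 RPM, a ratio of 0.578 (0.557 to 0.600), while Thra, the other receptor gene, was at 33.2 and 35.8 RPM. Sox6, known as a repressor of slow-fibre genes, was at 1154 and 561 RPM, a ratio of 0.486 (0.467 to 0.505), and the nuclear receptor Esrrg at 1531 and 726 RPM. The loci of Thrb, Thra, Sox6, Esrrg and Mef2d overlap other loci. So do those of further listed genes, among them Myl2, Mylk and Med13. Gata4 was higher, at 232 and 373 RPM, a ratio of 1.61 (1.51 to 1.71), as were Mef2d and, with 23 and 41 reads, Srf. Tead1, a factor of the MCAT element, was at 550 and 572 RPM, within counting error.

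Allelic ratio intervals of the libraries were separate for 1 of the 13 thick filament and chaperone genes (Mybpc3), for 3 of the 7 thin filament genes (Tnnt2, Tnnc1 and Actc1) and for 4 of the 16 factors (Gata4, Thrb, Med13 and Sox6). They were separate for none of the 11 light chain genes and none of the 4 other heavy chains. The share was 11.8% of all autosomal genes with at least 20 reads and 31.7% of those with at least 1000, a depth that all 8 genes with separate intervals reached, as did all 7 thin filament genes, 7 of the thick filament and chaperone genes, 7 of the factors, 3 of the light chain genes and none of the other heavy chains.

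**Figure D5:**
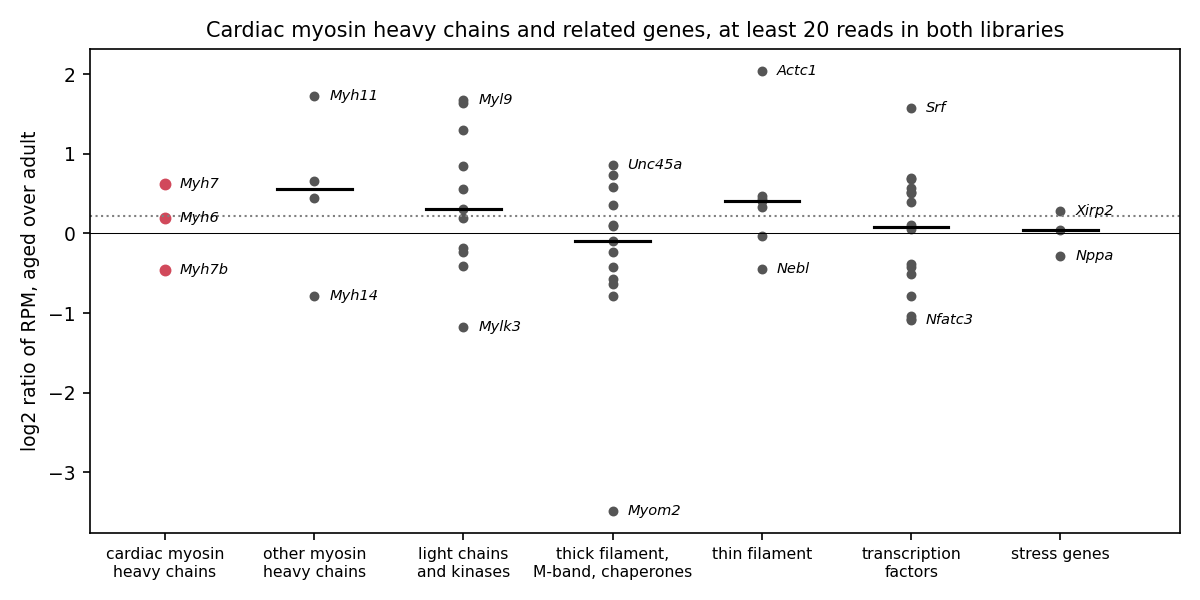
Log2 ratio of RPM, aged over adult, of Myh6, Myh7 and Myh7b (red) and of related genes with at least 20 reads in both libraries (grey points; bars are list medians, the dotted line is the median of all autosomal genes, and the highest and lowest gene of each list are named). Actc1 is highest and Myom2 lowest of the genes shown, and the cardiac heavy chains lie between them.

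Markers of other cells also differed between the libraries. Summed RPM of 7 fibroblast markers went from 619 to 964, mostly through Dcn (461 and 773 RPM), while Col3a1 was lower, at 47.7 and 31.2 RPM, and Col1a2 was at 42.3 and 37.5 RPM. The sum of 7 endothelial markers went from 703 to 1012 RPM, that of the pericyte and smooth muscle list from 179 to 434 with 6 of 7 genes listed, and that of 5 macrophage markers from 295 to 471. The sum of 13 cardiomyocyte markers had a ratio of 1.07. Ryr2 made up the largest part of it, and single markers ranged from a ratio of 0.628 for Rbm20 to 4.11 for Actc1. Scaled to this sum, the log2 ratio was 0.10 for Myh6, 0.52 for Myh7 and -0.57 for Myh7b. Summed markers of atrial cardiomyocytes were at 206 and 171 RPM. Among them, Sln, a regulator of the calcium pump, was at 18.8 and 12.4 RPM. Nppa and Myl4 had ratios of 0.82 and 0.88, and Stard10 was at 6.98 and 8.61 RPM, within counting error. Bmp10 had 29 and 1 reads and Myl7 38 and 10. Skeletal muscle was represented by Ckm, which the heart also expresses, with 298 and 315 reads, a log2 ratio of RPM of 0.83. Any other gene of that list had at most 17 reads. The part of cell composition in the levels of Myh6, Myh7 and Myh7b was not tested beyond the scaling to cardiomyocyte markers, and in pooled nuclei fewer cells of a type and less RNA per cell cannot be told apart.

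The genes most like each member were those with the smallest Euclidean distance over the allelic ratios of both libraries and the log2 ratio of RPM, over 2 libraries and among 7066 autosomal genes with at least 100 reads in both (7065 for Myh7). Nearest to Myh6 were Isg20l2, Btbd9 and Ccbe1, at distances of 0.0151 to 0.0391. Nearest to Myh7 were 3110056K07Rik, Itgb1 and Ddx46, at 0.0130 to 0.0189, and nearest to Myh7b were Heatr5b, Sar1a and Tyw3, at 0.0200 to 0.0262. None of these 9 is in the lists of sarcomere genes above.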

How the data were processed

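Allele-specific snRNA-seq counts of 1 adult and 1 aged heart were analysed. The authors aligned reads with Cell Ranger (7.1.0 per the labels' processing notes, which also name Seurat 5.1.0), split alignments by nucleus, pooled nuclei with an active BL6 X chromosome and ran Allelome.PRO2 with RefSeq gene loci (GRCm38) and the SNPs that separate both strains. Deposited were raw counts, per gene and allele, of reads over SNPs, and the allelic ratio, a fraction that the authors rounded to 2 decimals. The deposited allelic score was not used. The study's methods name DoubletFinder for removing doublets and CellBender for background RNA in its clustering. Whether the pooled nuclei were limited to those kept there is not stated, and pooled counts allow no further removal of doublets here. Removal of duplicate reads, correction for background RNA and strand use are not stated for these counts.

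Allelic ratios with exact Clopper-Pearson intervals, changes with Newcombe intervals, RPM (reads scaled to 1000000 reads of all genes) with Poisson intervals, ratios of RPM with exact conditional intervals and odds ratios with Woolf intervals were computed from the counts (numpy 2.4.6, pandas 2.3.3, scipy 1.17.1). Functions were tested on simulated data. A minimum of 20 reads and a fold of 1.5 were used. Intervals treat reads as independent. The genes, related lists, neighbours within 100 kb and the rule for similar genes were chosen with earlier results of these data known. The strand and exons came from GENCODE M21 and sequences from RefSeq, both GRCm38. Other scales, read minimums, folds, intervals and deposited ratios were tried.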

Additional observations from a re-analysis of the deposited data

How the results depend on the processing

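Levels depended on some of the scales. Scaled to the median of ratios over genes, the log2 ratio of Myh6 turned to -0.022, that of Myh7 was 0.40 and that of Myh7b -0.68. The median of ratios centres the genes and so takes off 0.22. Scaled to cardiomyocyte markers it was 0.10 for Myh6 and 0.52 for Myh7. Both scales take Myh7 under a fold of 1.5, and the median of ratios takes Myh7b past it. From BL6 reads alone it was 0.36 for Myh6 and 0.51 for Myh7, and from CAST reads alone 0.091 and 0.76. Without the reads of Mhrt, an alternative chosen after seeing the data, that of Myh7 was 0.78. Corrected for the autosomal BL6 share, the adult and aged allelic ratios were 0.347 and 0.390 for Myh6 and 0.543 and 0.500 for Myh7, and the adult one was 0.587 for Myh7b. Without Mhrt those of Myh7 were 0.537 and 0.503. The Myh7 share was 37.0% and 39.4% from BL6 reads, 20.8% and 29.3% from CAST reads, 29.6% and 36.04% per kb, and 19.4% and 26.5% without Mhrt.

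Intervals that did not overlap were found for 1463 of 12390 autosomal genes (11.8%). They were found for 372 of 1175 with at least 1000 reads (31.7%) and for 827 of 7247 at loci that overlap no other (11.4%). The 3507 genes higher in the aged library became 1443 at a fold of 2, 5456 at a smaller fold, 1720 and 223 with at least 100 and 1000 reads, and 2252 by the median of ratios. The 1449 lower genes became 641, 2455, 702, 136 and 2257, respectively. Fewer genes reach the higher read minimums. With at least 100 and 1000 reads, 24.3% and 19% of them were higher and 9.93% and 11.6% lower. By the median of ratios, numbers of higher and lower genes were thus about equal. Scaling to autosomal reads or without the 20 loci with most reads left each level within its interval. The 3 changes in allelic ratio moved by less than their intervals under each alternative run. No paired analysis was possible because each age has 1 library, and for the same reason no library could be left out. Depth limits Myh7b, whose 696 aged reads leave an interval from 0.566 to 0.640.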
